A study of Arabidopsis thaliana with 33 samples.

Results

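Class III peroxidases are plant enzymes that are secreted to the cell wall, and 60 of their loci in Arabidopsis thaliana were looked up on an Affymetrix array of 22746 probe sets. A locus was a member where the platform annotation gave it a probe set of its own, which held for 44 of the 60, with 1 probe set each. The other 16 loci were not analysed here, and 5 of these share 3 probe sets with another locus. All plants were seedlings grown on standard medium. In 1 arm, 8 reporter lines with GFP in chosen root cells were turned into protoplasts at 5 to 6 days and sorted by fluorescence: hair cells (COBL9), meristematic xylem (S4), phloem pole pericycle (S17), xylem pole pericycle (JO121), protophloem and metaphloem (S32), companion cells (SUC2), a line marking pericycle, xylem and phloem together (J2501) and lateral root primordia (RM1000). In the other arm, 2 roots of 7 days were sliced from tip to base into 12 shared positions, 6 in the meristem, 2 in the elongation zone and 4 of about 500 µm in the maturation zone, and root 1 also gave a columella section. Each line is seen through the cells its reporter marks, with 1 array per line, although the design text names 2 to 3 replicates, and whether the array is a mean of these is not known. The roots are the replicates (n = 2), and this number limits the precision.

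Peroxidases of this class use hydrogen peroxide to oxidise phenolic compounds and wall proteins, and they can also form reactive oxygen. In the root they couple lignin precursors in xylem vessels and in the Casparian strip of the endodermis, they cross-link extensins in growing root hairs, and the balance of peroxide and superoxide that they set is tied to where cells leave the meristem. UPB1, a basic helix-loop-helix factor, is known to repress several of them at that border.

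Values are the deposited linear intensities, whose array medians lay between 0.790 and 1.04, so a value near 1 is the level of a typical probe set on its array. Probe sets differ in their response, so levels are compared between arrays and not between genes. An intensity of 2 was used to say that a transcript was present, a level chosen after the values were seen. Some arrays stood apart: the SD of log2 intensity was 0.137 for the columella and 0.426 for elongation section 2 of root 1. It was 0.634 to 0.660 for meristematic section 1 and maturation sections 1 and 4 of root 1 (0.639 for the last), below the other arrays, which reached 1.53. The label of elongation section 2 of root 1 is also in conflict, since its description names root 2, but it was counted in root 1 by its title and by how many sections the design gives each root. In sections of whole tissue, fewer cells of a type and less RNA per cell cannot be told apart.

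Most members were low in the root tip, and most of those present in the sections of both roots peaked beyond the meristem. Over the 44 members, 32 reached intensity 2 in both roots, 2 in a single root, and 10 on no section array. Of the 32, 5 had their highest mean in the meristematic zone, 7 in the elongation zone and 20 in the maturation zone. Of all 6087 probe sets that reached this level in both roots, 58.2% peaked in the meristematic zone, 13.9% in the elongation zone and 27.9% in the maturation zone. In the mean of the 2 roots, 7 members peaked in elongation section 1 and 10 in maturation section 2. Single roots often differed from this mean. AT3G49960 and AT5G17820 peaked in elongation section 1 of both roots, but AT3G21770 in maturation section 3 of root 1 and elongation section 2 of root 2. The shares of all probe sets were not counted per section, so these counts are not read as a result about the members. Another 5 peaked in maturation section 3 and 3 in maturation section 4. Variation over the 12 positions passed limma's F test (adjusted p under 0.05, Benjamini-Hochberg over all probe sets) in 29 members, where 19.2% of all probe sets passed.

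**Figure D1:**
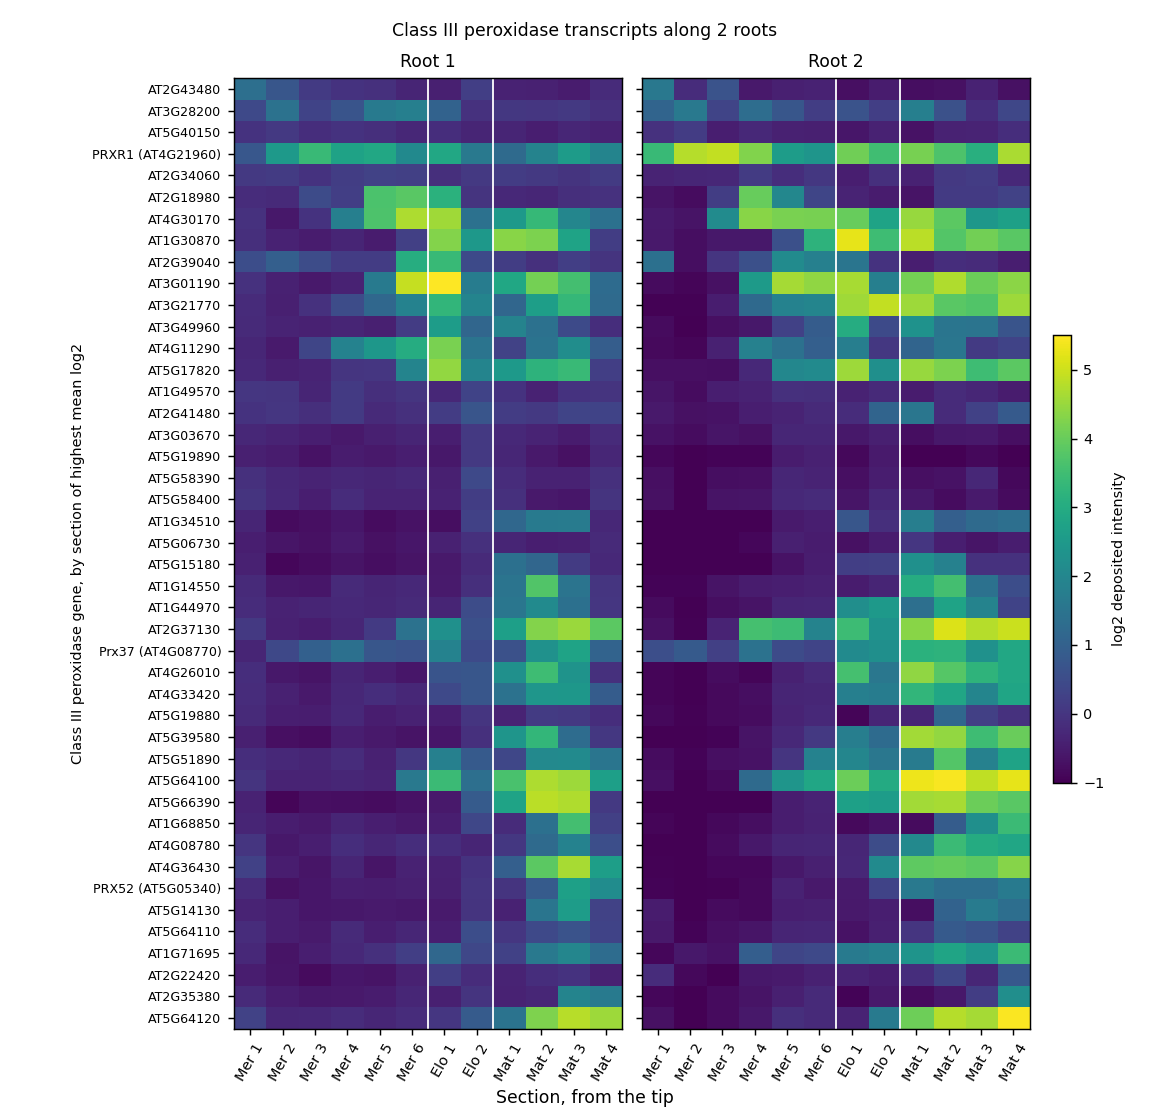
Heat maps of log2 intensity for the 44 class III peroxidase genes in the 12 sections of each root, from the tip (left) to the last maturation section (right), with white lines between zones. Genes are ordered by the section of their highest mean, so the shift of bright cells from the meristem (top) to maturation sections 3 and 4 (bottom) follows from this order. Of the 32 genes at intensity 2 or more in both roots, 20 peaked in the maturation zone.

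The comparison of the maturation zone, where cells differentiate, with the meristematic zone, where they divide, gave the most calls. Of 44 members, 26 rose, against 6.66% of all probe sets called higher, 1 fell, against 7.07% called lower, and 17 did not pass. The median log2 difference over the members was 1.58, beside -0.04 over all probe sets. The sign was the same in both roots in 39 members, a share not counted over all probe sets. Each zone comparison rests on 1 mean per zone and root, and only these 2 roots enter it. Its p-value uses the spread between them over all zones, drawn by limma towards the typical spread over all probe sets. Of the 27 calls, 16 passed with any 1 array left out and 16 with an offset of 1 before log2. The offset ended the calls of AT1G71695, AT2G43480, AT3G01190, AT3G21770, Prx37 (AT4G08770), AT4G08780, AT4G26010, AT4G30170, AT5G17820, AT5G39580 and AT5G64110.

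**Figure D2:**
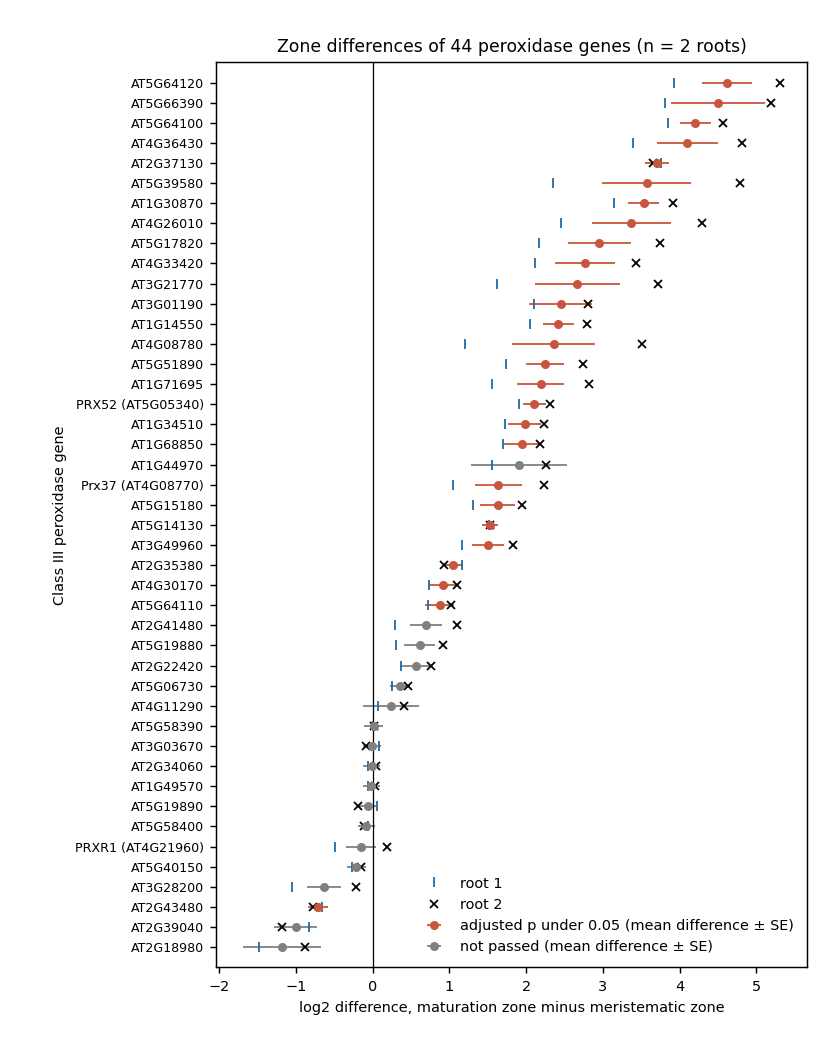
Log2 difference between the maturation zone and the meristematic zone for each of the 44 genes, with the mean over both roots as a dot, its SE as a bar, and the value of each root as a tick or cross. The 26 genes that rose run from AT5G64110 at 0.87 to AT5G64120 at 4.62, and root 2 lies to the right of root 1 in most of them.

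Of the peroxidases known for root hair growth, AT4G26010 was the single measured one of 4. AT4G26010 read 0.639, 0.696 and 0.899 (lowest, median and highest) over the meristematic sections of root 1, 1.63 and 1.67 in its elongation sections and 4.77, 11.2, 5.02 and 0.936 in its maturation sections. Root 2 gave 0.499, 0.556 and 0.861 over its meristem, 12.0 and 3.00 in the elongation zone and 21.4, 13.8, 9.37 and 7.42 in the maturation zone. It was low throughout the meristem in both roots and first reached 2 at elongation section 1 in root 2 and maturation section 1 in root 1. In the last section of root 1 it was back near 1. The maturation zone exceeded the meristematic zone by 2.46 in root 1 and 4.29 in root 2, a log2 difference of 3.37 ± 0.52 (SE, n = 2 roots, limma adjusted p = 0.0212).

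Among the peroxidases of the Casparian strip, the lignin band that seals the endodermis, 3 of 5 were measured. AT5G66390 and AT1G44970 first reached 2 in the same section as each other in both roots and were highest in maturation section 2 of both. AT5G66390 (PRX72) read 0.529, 0.594 and 0.771 (lowest, median and highest) over the meristematic sections of root 1, 0.677 and 1.82 in its elongation sections and 6.78, 28.4, 26.3 and 1.05 in its maturation sections. The matching values of root 2 were 0.403, 0.462 and 0.778 (meristem), 6.52 and 6.01 (elongation) and 24.1, 25.0, 16.5 and 14.2 (maturation). The gene was near the bottom of the scale in all 12 meristematic sections and first reached 2 at elongation section 1 in root 2 and at maturation section 1 in root 1. Its log2 difference between the maturation and meristematic zones was 4.50 ± 0.61 (SE, n = 2 roots, limma adjusted p = 0.0162). AT1G44970 read 0.773, 0.829 and 0.883 (lowest, median and highest) over the meristematic sections of root 1, 0.792 and 1.43 in its elongation sections and 2.96, 4.34, 2.66 and 1.02 in its maturation sections. In root 2 the gene read 0.452, 0.611 and 0.816 in the same order over the meristem, then 4.66 and 5.75, then 2.61, 6.77, 3.74 and 1.24. AT1G44970 was low again in maturation section 4 of both roots. It varied along the root (F test, limma adjusted p = 0.0128), while its zone difference of 1.91 ± 0.63 did not pass (limma adjusted p = 0.120, n = 2 roots).

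The Casparian peroxidase AT4G11290 is also a known target of UPB1, and it came on earlier than the other members of its list. AT4G11290 read 0.695, 2.49 and 8.20 (lowest, median and highest) over the meristematic sections of root 1, 18.3 and 2.84 in its elongation sections and 1.22, 2.79, 4.53 and 1.89 in its maturation sections. Root 2 gave 0.530, 1.36 and 3.64 over its meristem, 3.41 and 1.04 in the elongation zone and 2.14, 2.94, 1.07 and 1.23 in the maturation zone. In root 1 it climbed through the meristem to a sharp maximum in elongation section 1, while in root 2 its highest value was already in meristematic section 4. It passed the F test (limma adjusted p = 0.00796; without the root block the adjusted p was 0.0717), and none of its 3 zone differences did. GSO1, a receptor kinase needed to close the Casparian strip and the single measured gene of 8 in the list of other strip genes, read 2.01 and 1.56 in the elongation zone and 4.38, 3.52, 2.44 and 1.68 in the maturation zone of root 1, and 8.21 and 9.33, then 7.59, 3.70, 1.39 and 1.81 in root 2. It too passed the F test and no zone comparison.

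Of the other lignin peroxidases, 5 of 6 were measured, and 3 of them rose in the maturation zone over the meristematic zone. Of all 44 members 26 did so, beside 6.66% of all probe sets, so this count does not set the lignin list apart. AT5G64120 (PRX71), which acts in lignification and cell expansion, had the largest such difference of all members. AT5G64120 read 0.813, 0.852 and 1.21 (lowest, median and highest) over the meristematic sections of root 1, 1.02 and 1.83 in its elongation sections and 2.76, 19.0, 27.7 and 23.5 in its maturation sections. The matching values of root 2 were 0.477, 0.641 and 0.919 (meristem), 0.788 and 3.22 (elongation) and 16.6, 27.4, 24.5 and 43.9 (maturation). Every maturation section was above every meristematic section in both roots, and the last section held 23.5 in root 1 and 43.9 in root 2. The log2 difference was 4.62 ± 0.33 (SE, n = 2 roots, limma adjusted p = 0.00521) against the meristematic zone and 3.68 ± 0.33 (SE, n = 2 roots, limma adjusted p = 0.0245) against the elongation zone. The second call was lost without maturation section 3 of root 1 (limma adjusted p = 0.0658) or elongation section 1 of root 2 (0.100), and with an offset of 1 (0.0747).

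AT5G05340 (PRX52), known for lignin of stem fibres, came on late. PRX52 read 0.613, 0.721 and 0.876 (lowest, median and highest) over the meristematic sections of root 1, 0.745 and 1.00 in its elongation sections and 0.976, 1.82, 6.49 and 4.50 in its maturation sections. In root 2 the gene read 0.455, 0.535 and 0.769 in the same order over the meristem, then 0.693 and 1.24, then 3.11, 2.55, 2.57 and 3.17. It reached intensity 2 at maturation section 3 in root 1 and at maturation section 1 in root 2. The log2 difference from the meristematic zone was 2.11 ± 0.15 (SE, n = 2 roots, limma adjusted p = 0.00535). AT5G51890, a peroxidase of lignifying xylem vessels, had 2 humps. AT5G51890 read 0.752, 0.860 and 1.03 (lowest, median and highest) over the meristematic sections of root 1, 3.54 and 1.79 in its elongation sections and 1.32, 4.18, 4.31 and 2.88 in its maturation sections. Root 2 gave 0.526, 0.609 and 3.66 over its meristem, 3.99 and 3.01 in the elongation zone and 3.28, 13.6, 3.65 and 6.87 in the maturation zone. It was up by elongation section 1, lower at maturation section 1 of root 1, and highest later in the maturation zone. Both steps from the meristem passed, by 1.78 ± 0.25 into the elongation zone and 2.24 ± 0.25 into the maturation zone (SE, n = 2 roots, limma adjusted p = 0.0278 and 0.0110). The first was lost without elongation section 1 of root 1 (0.0561) or of root 2 (0.0529), without the root block (0.0855) and with an offset of 1 (0.0778). The last lignin peroxidases, AT2G41480 (PRX25) and AT2G22420, stayed low, with section maxima of 2.94 and 1.74, and passed no test.

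HCT, an enzyme of lignin precursor synthesis and the single measured gene of 16 in that list, rose as well, by 2.62 ± 0.28 (SE, n = 2 roots, limma adjusted p = 0.0108) in the maturation zone relative to the meristematic zone. LAC16, the single measured laccase of 17, did not pass any comparison. No suberin gene of 7 was measured.

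Outside the role lists, AT4G36430 and AT5G64100 had the largest rises. AT4G36430 read 0.650, 0.745 and 1.19 (lowest, median and highest) over the meristematic sections of root 1, 0.756 and 0.972 in its elongation sections and 1.95, 14.6, 25.1 and 6.28 in its maturation sections. The matching values of root 2 were 0.477, 0.542 and 0.747 (meristem), 0.821 and 4.33 (elongation) and 14.7, 15.7, 14.6 and 19.8 (maturation). It first reached 2 at maturation section 2 in root 1 and at elongation section 2 in root 2. AT5G64100 read 0.778, 0.799 and 3.11 (lowest, median and highest) over the meristematic sections of root 1, 10.9 and 2.61 in its elongation sections and 12.3, 25.8, 23.5 and 6.41 in its maturation sections. In root 2 the gene read 0.508, 1.48 and 7.21 in the same order over the meristem, then 16.5 and 7.90, then 40.1, 43.4, 29.6 and 38.1. AT5G64100 was already present at the end of the meristem and passed all 3 zone comparisons. Its log2 differences were 2.61 ± 0.20 for elongation over meristem, 1.59 ± 0.20 for maturation over elongation and 4.21 ± 0.20 for maturation over meristem (SE, n = 2 roots, limma adjusted p = 0.0123, 0.0475 and 0.00395). The middle call passed in 10 of the 24 runs without 1 array (limma adjusted p = 0.272 without elongation section 2 of root 1) and under none of the 5 other settings, with adjusted p of 0.0514 (a filter on low values) to 0.582 (no root block). Without the root block the first was lost too (0.0858). The only other member to pass all 3 was AT2G37130, by 1.53 ± 0.16, 2.18 ± 0.16 and 3.71 ± 0.16 in the same order (SE, n = 2 roots, limma adjusted p = 0.0181, 0.0206 and 0.00347). Its first and middle calls were lost without the root block (0.335 and 0.342), with quantile normalization (0.0531 and 0.0686) and when root 1 lacked its first elongation section (0.144 and 0.0610). In the last section AT2G37130 stood at 14.5 in root 1 and 31.6 in root 2.

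AT5G39580 read 0.584, 0.659 and 0.746 (lowest, median and highest) over the meristematic sections of root 1, 0.658 and 0.933 in its elongation sections and 5.24, 9.79, 2.45 and 1.04 in its maturation sections. Root 2 gave 0.448, 0.575 and 1.06 over its meristem, 3.43 and 2.40 in the elongation zone and 24.1, 21.8, 11.1 and 16.1 in the maturation zone. AT5G39580 was low up to elongation section 2 in root 1 and higher at every maturation section of root 2 than of root 1, with a log2 difference from the meristematic zone of 3.57 ± 0.58 (SE, n = 2 roots, limma adjusted p = 0.0230). AT4G33420 rose by 2.77 ± 0.39, AT3G21770 by 2.67 ± 0.56, AT3G01190 by 2.45 ± 0.41 and AT1G14550 by 2.42 ± 0.20 (SE, n = 2 roots, limma adjusted p = 0.0176, 0.0411, 0.0248 and 0.00696). With elongation section 2 of root 1 left out, the calls of AT3G01190 (limma adjusted p = 0.166), AT3G49960 (0.0638), AT4G08780 (0.0645), AT4G30170 (0.410) and AT5G17820 (0.0532) for maturation over meristem were lost. The rise of AT3G21770 was uneven, 1.62 in root 1 and 3.72 in root 2, and its call was lost without the root block (limma adjusted p = 0.143). The 17 members that did not pass included PRXR1 at -0.15 ± 0.19 and AT2G18980 at -1.18 ± 0.50 (SE). Without elongation section 2 of root 1, the count of members that rose was 21.

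**Figure D3:**
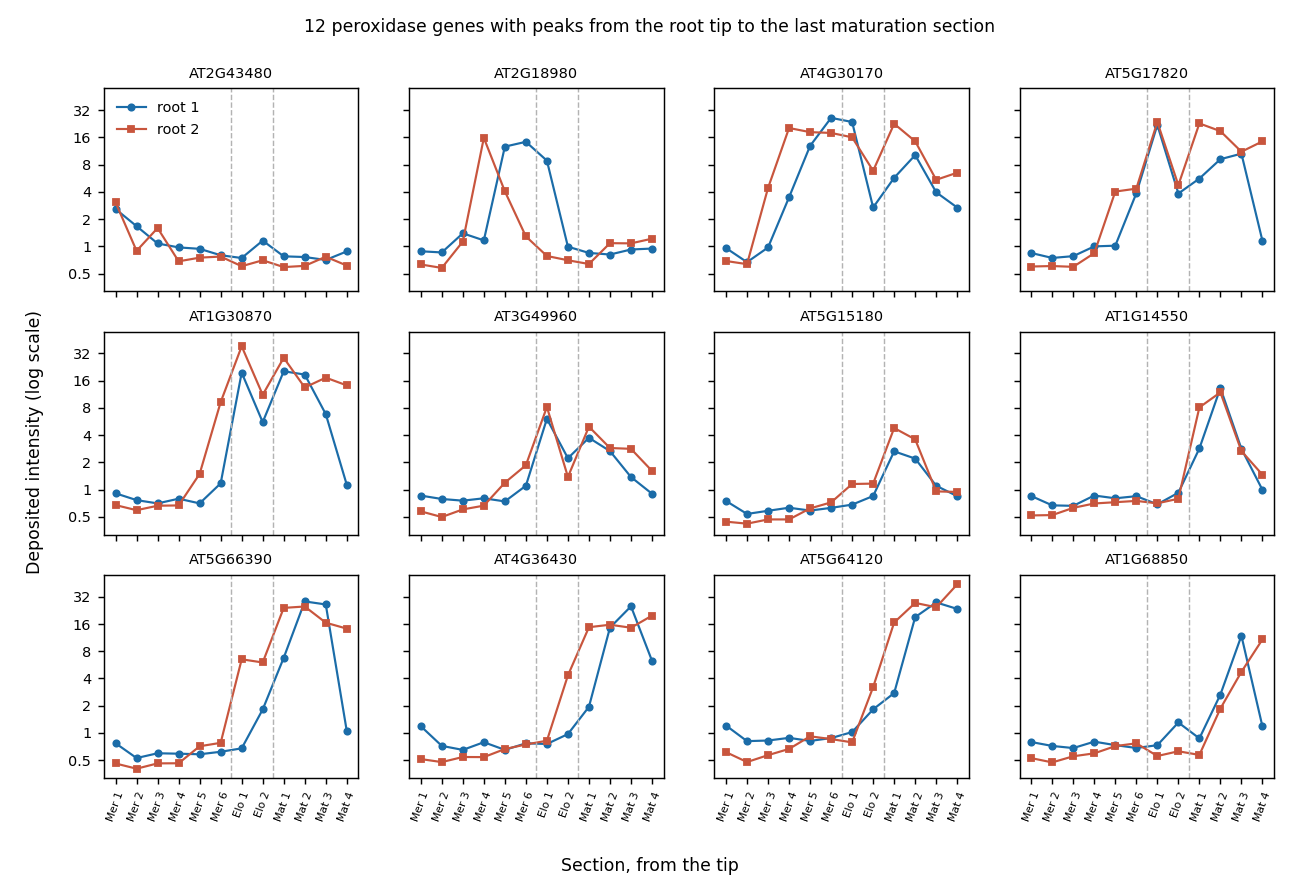
Deposited intensity (log scale) of 12 peroxidase genes against section number from the tip, with root 1 as blue circles, root 2 as red squares and dashed lines between zones. The genes run from AT2G43480, highest in section 1 of both roots, through AT2G18980 in the late meristem and AT5G17820 with a spike at elongation section 1 (21.9 in root 1 and 23.6 in root 2), to AT5G64120, highest in the maturation zone.

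The elongation zone was compared with the meristematic zone to ask which transcripts come up as cells start to lengthen. Of 44 members, 9 rose, beside 2.39% of all probe sets, and none fell, beside 5.13%. Unadjusted p was under 0.05 in 22 members, a share not counted over all probe sets. The median log2 difference was 0.61, beside 0.05 over all probe sets. The 9 were AT1G30870, AT3G21770, AT5G17820, AT5G64100, AT3G01190, AT3G49960, AT5G51890, AT2G37130 and AT4G30170, with log2 differences between 1.26 and 3.91. The count rested on the first elongation section: it was 4 without that array of root 1 and 3 without that of root 2. AT1G30870 and AT5G64100 passed with any 1 of the 24 arrays left out. Without elongation section 2 of root 1, 7 members rose and 1 fell.

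AT1G30870 read 0.704, 0.780 and 1.17 (lowest, median and highest) over the meristematic sections of root 1, 19.6 and 5.56 in its elongation sections and 20.3, 18.7, 6.83 and 1.13 in its maturation sections. The matching values of root 2 were 0.593, 0.672 and 9.26 (meristem), 38.4 and 11.2 (elongation) and 28.6, 13.4, 17.3 and 14.2 (maturation). The first elongation section was the maximum of root 2 and close to that of root 1, and the second was lower in both. The log2 difference between the elongation and meristematic zones was 3.91 ± 0.20 (SE, n = 2 roots, limma adjusted p = 0.00940). AT5G17820, the other known UPB1 target, spiked in both roots. AT5G17820 read 0.743, 0.920 and 3.85 (lowest, median and highest) over the meristematic sections of root 1, 21.9 and 3.83 in its elongation sections and 5.60, 9.16, 10.6 and 1.15 in its maturation sections. In root 2 the gene read 0.593, 0.722 and 4.33 in the same order over the meristem, then 23.6 and 4.74, then 22.8, 18.7, 11.1 and 14.4. A spike stood at elongation section 1 between lower neighbours, and a second broad maximum followed in the maturation zone. Its log2 difference was 3.08 ± 0.41 (SE, n = 2 roots, limma adjusted p = 0.0251; without elongation section 1 of root 2 it was 0.109).

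Along the root, UPB1 itself was highest before these spikes. It read 0.730, 0.569, 0.784, 0.839, 3.87 and 11.1 in meristematic sections 1 to 6 of root 1, then 6.18 and 0.951 in the elongation sections. In root 2 it read 0.452, 0.416, 0.574, 4.58, 6.10 and 2.90, then 2.53 and 1.11. The peak was at section 6 in root 1 and section 5 in root 2, and both roots were near 1 in elongation section 2. UPB1 varied along the root (F test, limma adjusted p = 0.0119). Its other listed target, AT4G11290, read 3.71, 5.43 and 8.20 in meristematic sections 4 to 6 of root 1, where UPB1 also climbed. In root 2 AT4G11290 read 3.64, 2.68 and 1.97 there. Among the sorted populations UPB1 was highest in hair cells, at 8.87, beside 1.52 to 5.39 in the others, and AT5G17820 was highest there too. How UPB1 bears on these transcripts was not tested. At the border itself, elongation section 1 minus meristematic section 6, no member passed limma's test after adjustment, beside 0.0264% of all probe sets called higher and 0.0% called lower. Unadjusted p was under 0.05 in 8 members, and 13 members were at least 2-fold higher. The shares over all probe sets were not counted for these, so neither count is read as a result about the members. AT1G30870 differed by 4.06 in root 1 and 2.05 in root 2, a log2 mean of 3.06 ± 0.83 (limma adjusted p = 0.382, n = 2 roots). AT5G17820 differed by 2.51 in root 1 and 2.45 in root 2 (limma adjusted p = 0.582).

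Against the elongation zone, 7 members rose in the maturation zone, beside 0.827% of all probe sets, and none fell, beside 0.211%. Unadjusted p was under 0.05 in 18 members, a share not counted over all probe sets. The 7 that rose were AT5G64120, AT4G36430, AT1G14550, AT2G37130, PRX52, AT5G64100 and AT5G14130, with log2 differences between 1.30 and 3.68. No call of the 7 held with every array left out in turn. The count was 4 without elongation section 1 of root 1, 1 without that of root 2, 4 without maturation section 2 of root 1 and 2 without maturation section 3 of root 1.

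Within the maturation zone, sections 3 and 4 were set against sections 1 and 2. Here 2 members rose, beside 0.413% of all probe sets, and 2 fell, beside 0.136%. AT2G35380 read 0.666, 0.711 and 0.851 (lowest, median and highest) over the meristematic sections of root 1, 0.744 and 0.979 in its elongation sections and 0.769, 0.814, 3.80 and 3.13 in its maturation sections. Root 2 gave 0.480, 0.603 and 0.860 over its meristem, 0.523 and 0.681 in the elongation zone and 0.570, 0.667, 1.14 and 4.67 in the maturation zone. AT2G35380 was under 2 up to maturation section 2 in both roots and highest in the last 2 sections, a log2 difference of 2.02 ± 0.26 (SE, n = 2 roots, limma adjusted p = 8.34e-04). AT1G14550 read 0.662, 0.825 and 0.861 (lowest, median and highest) over the meristematic sections of root 1, 0.688 and 0.924 in its elongation sections and 2.85, 13.3, 2.83 and 0.994 in its maturation sections. The matching values of root 2 were 0.519, 0.666 and 0.751 (meristem), 0.706 and 0.793 (elongation) and 8.10, 11.9, 2.67 and 1.46 (maturation). AT1G14550 did the opposite, with a pulse at maturation sections 1 to 3 that was over by section 4, and a log2 difference of -2.09 ± 0.26 (SE, n = 2 roots, limma adjusted p = 5.74e-04). AT5G15180 had a shorter pulse, at 2.65, 2.20, 1.10 and 0.847 in root 1 and 4.79, 3.59, 0.956 and 0.943 in root 2 over the 4 maturation sections. Its log2 difference was -1.72 ± 0.24 (SE, n = 2 roots, limma adjusted p = 0.00236). The second member that rose, AT5G14130, read 0.773, 2.87, 6.01 and 1.21 in root 1 and 0.587, 2.07, 3.28 and 2.53 in root 2 over these sections. Its log2 difference was 1.12 ± 0.23 (SE, n = 2 roots, limma adjusted p = 0.0440), and it passed in 4 of 24 runs that left out 1 array, with a limma adjusted p of 0.270 without maturation section 3 of root 1. The other 3 calls passed in all 24 runs.

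In the mean of the 2 roots 5 members at level in both were highest in the meristem, although AT4G30170 and AT3G28200 peaked in maturation section 1 of root 2. AT2G43480 was highest in section 1, at 2.58 in root 1 and 3.05 in root 2, and at most 1.67 in the other meristematic sections. It was the one member called lower in the maturation zone, with a log2 difference of -0.71 ± 0.13 (SE, n = 2 roots, limma adjusted p = 0.0323). This call was lost without the root block (limma adjusted p = 0.220) and when any of 3 arrays of root 1 was left out, meristematic section 1, meristematic section 2 or elongation section 1 (0.120 for the last, the highest). AT2G18980 formed a narrow band. In root 1 it read 1.16, 12.6 and 14.3 in meristematic sections 4 to 6 and 8.84 in elongation section 1, and in root 2 1.13, 15.8, 4.05 and 1.29 in meristematic sections 3 to 6. All its other section values were under 2, and the band lay further from the tip in root 1. AT4G30170 came on in the same stretch and stayed on, with 5.71, 10.2, 3.95 and 2.68 in the maturation zone of root 1 and 22.6, 14.4, 5.43 and 6.50 in that of root 2. PRXR1 (AT4G21960) was at 2 or more in 11 of 12 sections of root 1 and all 12 of root 2, and passed no comparison. AT3G28200 stayed between 0.904 and 3.51 on all section arrays.

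Among the sorted populations, hair cells stood out. A member was counted for a population where it was highest there and at least 4-fold above the mean log2 of the other 7 populations, with no test, since there is 1 array per line. Hair cells held 13 of the 44 members (29.5%), beside 2.95% of all probe sets. The other 7 lines mark pericycle, xylem, phloem, companion cells or lateral root primordia. No line marked cortex, endodermis or epidermis without hairs, so this count cannot tell hair cells from outer tissues in general. The 13 are called hair cell members only in this sense. AT2G18980 read 29.5 in hair cells, against 0.534, 0.967 and 3.74 (lowest, median and highest) over the other 7 populations. Every other population was under 4, with companion cells the highest of them. AT3G01190 read 35.7 in hair cells, against 0.602, 0.930 and 5.89 (lowest, median and highest) over the other 7. AT1G30870 read 29.3 in hair cells, against 0.527, 0.734 and 2.65 (lowest, median and highest) over the other 7. AT5G17820 read 30.8 in hair cells, against 0.702, 0.889 and 3.91 (lowest, median and highest) over the other 7. In these 4 genes hair cells were 2.60 to 3.47 on the log2 scale above the next population. AT4G30170 read 28.6 in hair cells, against 0.454, 1.01 and 4.80 (lowest, median and highest) over the other 7. AT2G37130 read 32.6 in hair cells, against 0.745, 1.08 and 6.32 (lowest, median and highest) over the other 7. AT5G64100 read 32.1 in hair cells, against 0.637, 1.42 and 6.52 (lowest, median and highest) over the other 7. Hair cells were again highest, and companion cells came next, as in 9 of the 13 genes. AT3G49960 read 13.4 in hair cells, against 0.441, 0.618 and 1.21 (lowest, median and highest) over the other 7. The other 5 were AT5G39580, AT2G39040, AT4G26010, AT1G14550 and AT5G64120, between 2.28 and 3.69 above the mean log2 of the others. AT4G26010, the root hair growth peroxidase, read 9.32 in hair cells, against 0.551, 0.805 and 2.90 (lowest, median and highest) over the other 7. AT5G64120 had the smallest gap, with 5.61 in hair cells and 4.15 in companion cells.

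**Figure D4:**
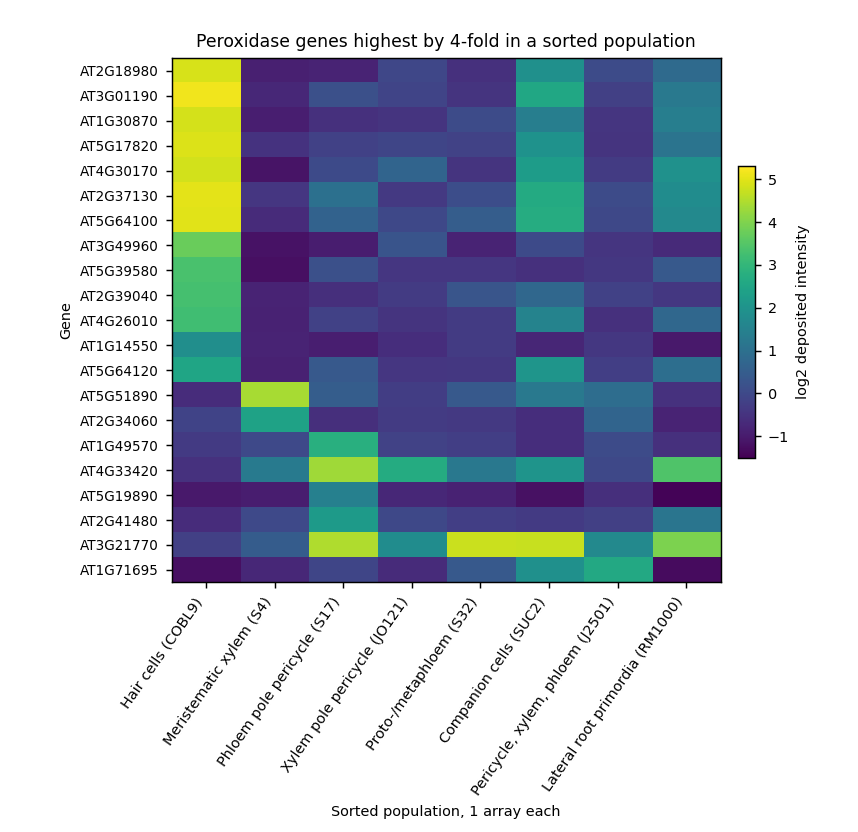
Heat map of log2 intensity for the 21 genes counted for a sorted population, with 1 array per column. Each was highest there and at least 4-fold above the mean log2 of the other 7 populations, not always above the next one. The upper 13 rows are bright in the hair cell column, and AT3G21770 is bright in several phloem and pericycle columns.

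The hair cell label was checked with EXPA7 and EXPA18, wall-loosening expansins of root hairs and the 2 measured markers of 5. Their summed intensity was 23.9 in hair cells, 2.57 in lateral root primordia, 2.38 in companion cells and 1.10 to 1.52 in the other 5 populations. Companion cells and lateral root primordia were thus next in the markers and in most of the hair cell peroxidases, and the part of hair cell RNA in this was not tested. Along the root both expansins, like AT3G49960, first reached 2 at elongation section 1 of root 1, and in root 2 the expansins did so 1 section before it. EXPA7 read 6.94 and 2.06, then 7.13, 5.28, 1.64 and 0.903 in root 1 and 12.2 and 2.25, then 11.4, 3.94, 6.02 and 3.55 in root 2 over the elongation and maturation sections. EXPA18 read 3.94 and 2.93, then 8.53, 5.91, 2.21 and 0.860 in root 1 and 13.1 and 3.31, then 10.4, 4.64, 4.86 and 2.92 in root 2. In root 1 the expansins were highest in maturation section 1 and AT3G49960 in elongation section 1, and in root 2 all were highest in elongation section 1. AT3G49960 read 6.05 and 2.22, then 3.74, 2.66, 1.38 and 0.901 in root 1 and 8.19 and 1.38, then 4.96, 2.88, 2.82 and 1.61 in root 2. The 13 hair cell members did not form 1 profile along the root: over their 78 pairs the correlation across the 24 section arrays, which share the 2 roots, ran from -0.48 to 0.95 with a median of 0.61. AT2G18980 was back under 2 by elongation section 2, while AT5G64120 first reached 2 there or later.

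Phloem pole pericycle held 4 members, beside 1.05% of all probe sets. AT4G33420 read 20.3 in phloem pole pericycle, against 0.688, 2.44 and 10.7 (lowest, median and highest) over the other 7, the next being lateral root primordia. AT1G49570 read 6.92 in phloem pole pericycle, against 0.654, 0.844 and 1.04 (lowest, median and highest) over the other 7. This gene was under 2 on every section array. PRX25 read 4.63 in phloem pole pericycle, against 0.647, 0.862 and 2.20 (lowest, median and highest) over the other 7. AT5G19890 read 2.77 in phloem pole pericycle, against 0.369, 0.517 and 0.665 (lowest, median and highest) over the other 7. Phloem pole pericycle also had the second highest sum of the lateral root primordia markers LBD16, LBD29 and PUCHI, at 8.24, after 12.0 in lateral root primordia. The markers differed: LBD16 read 5.87 in phloem pole pericycle and 6.23 in primordia, but PUCHI 1.43 and 4.87. LBD29 was under 1 in both, at 0.942 and 0.938. The part of primordium cells in the peroxidase values was not tested.

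Meristematic xylem held 2 members, beside 1.23% of all probe sets. AT5G51890, the vessel peroxidase, read 21.5 in meristematic xylem, against 0.646, 1.31 and 2.39 (lowest, median and highest) over the other 7. AT2G34060 read 5.35 in meristematic xylem, against 0.562, 0.773 and 1.62 (lowest, median and highest) over the other 7. Protophloem and metaphloem held AT3G21770, beside 2.07%, but this gene read 27.0 there, 26.6 in companion cells, 22.6 in phloem pole pericycle and 15.5 in lateral root primordia, and 0.864 in hair cells. The first 2 of these lie 0.02 apart on the log2 scale. The J2501 line held AT1G71695, at 6.04, beside 0.0352%, with 3.74 in companion cells and 0.430 in hair cells. No member was counted for xylem pole pericycle, companion cells or lateral root primordia, beside 0.0659%, 0.747% and 0.431% of all probe sets. The SD of log2 intensity was 0.997 for xylem pole pericycle and 0.879 for J2501, below the 1.26 to 1.53 of the other sorted arrays. The part of this narrow spread in their low counts was not tested. No marker of companion cells or xylem had a probe set of its own, so these labels were not checked. The endodermis was not among the sorted lines, and none of its listed markers was measured. The single measured phloem marker of 5, OPS, read 0.832 in protophloem and metaphloem and 0.457 to 0.791 in the others, under 1 in all 8.

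Of the 44 members, 22 were at intensity 2 or more in both roots and in a sorted population, beside 24.6% of all probe sets. Another 10 members (beside 2.16%) were at this level in both roots and under it in all 8 populations: AT1G34510, AT1G44970, AT1G68850, AT2G35380, AT2G43480, Prx37, AT4G08780, AT4G11290, PRX52 and AT5G14130. AT1G68850 had the widest gap, at most 0.674 in the populations and 11.9 in maturation section 3 of root 1. It read 0.872, 2.66, 11.9 and 1.18 in the maturation sections of root 1 and 0.572, 1.86, 4.74 and 10.8 in those of root 2, late in both. AT5G66390, in the maturation zone between 1.05 and 28.4, was at most 3.00 in the populations. The reverse, at level in a population and under it on all section arrays, held for 5 members, beside 9.67%: AT1G49570, AT2G22420, AT2G34060, AT5G19890 and AT5G40150. The remaining 5 under 2 on every section and sorted array were AT3G03670, AT5G06730, AT5G58390, AT5G58400 and AT5G64110, beside 50.0%. The 2 members left, AT2G41480 and AT5G19880, reached intensity 2 in root 2 alone.

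The roots differed in where members came on and peaked. For the 32 members at level in both, the correlation between the roots over 12 positions had a median of 0.806, from 0.143 for AT3G28200 to 0.937. Of the 28 members under 2 in section 1 of both roots, 18 first reached that level in an earlier section in root 2, 8 in the same section and 2 earlier in root 1. The shares over all 1966 such probe sets were 63.9%, 27.5% and 8.6%, so the members' shift was near the background. The UPB1 peak was also 1 section nearer the tip in root 2. The SD of log2 intensity was lower in root 1 than in root 2 at all positions but meristematic sections 5 and 6. It was 1.04 against 1.45 in meristematic section 2 and 0.660 against 1.26 in maturation section 1. In meristematic sections 5 and 6 it was 1.00 and 0.909 in root 1 and 0.891 and 0.835 in root 2. The part of array spread in where members first reached 2 was not tested.

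In the last section the roots parted. Going from maturation section 3 to section 4, 18 members were at least 2-fold lower in root 1, beside 8.12% of all probe sets, and none was at least 2-fold higher, beside 0.136%. In root 2, 1 member was at least 2-fold lower, beside 0.312%, and 5 were at least 2-fold higher, beside 2.47%. AT5G66390 read 1.05 in section 4 and 26.3 in section 3 of root 1, against 14.2 and 16.5 in root 2. AT1G68850 differed by -3.33 on the log2 scale in root 1 and 1.19 in root 2. AT5G64120 and AT2G37130 changed by less than 2-fold in both roots, with log2 differences of -0.24 and -0.67 in root 1 and 0.84 and 0.20 in root 2. Of the 13 hair cell members, 7 were at least 2-fold lower in root 1 and none in root 2. The array of root 1 had the narrow spread given above, and its part in this was not tested. Without that array the counts were 26 members higher for maturation over meristem, 8 for maturation over elongation and 9 for elongation over meristem.

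**Figure D5:**
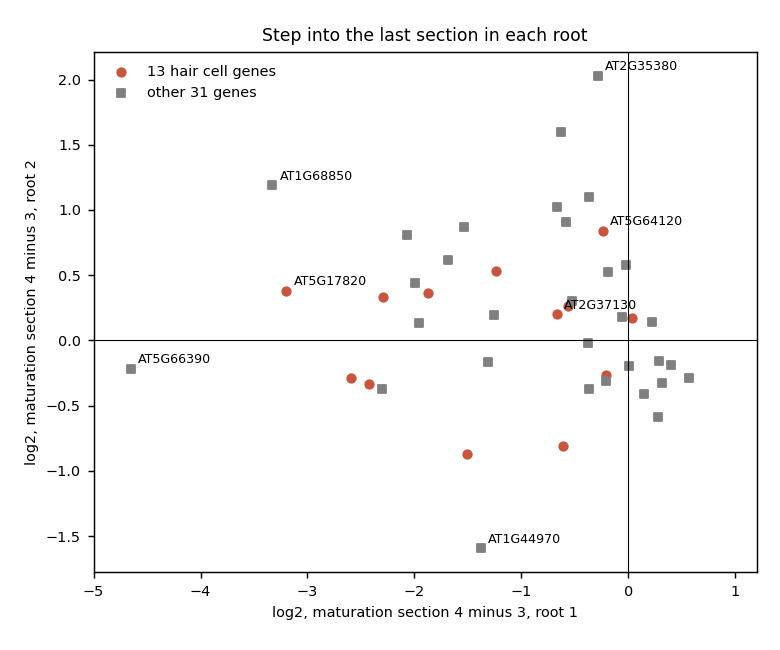
Log2 difference between maturation sections 4 and 3 in root 1 (x axis) and root 2 (y axis), 1 point per peroxidase gene, with the 13 hair cell genes as red circles and the other 31 as grey squares. Points spread to the left, down to AT5G66390 at -4.65 in root 1 and -0.22 in root 2.

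Several members lie next to each other in the TAIR10.1 annotation with no gene between them. Prx37 and AT4G08780 followed each other along the root (r = 0.80 over the 24 section arrays, which share the 2 roots) and rose by 1.64 ± 0.30 and 2.36 ± 0.54 in the maturation zone over the meristematic zone (SE, n = 2 roots, limma adjusted p = 0.0313 and 0.0498), calls that passed in 20 and 12 of the 24 runs without 1 array. In the run AT5G64100, AT5G64110 and AT5G64120, the middle gene stayed under 2 on all section arrays, with a highest value of 1.80, while its neighbours reached 43.4 and 43.9. All 3 rose, the middle one by 0.87 ± 0.19 (limma adjusted p = 0.0436), a call that passed in 18 of 24 runs. AT5G58390 and AT5G58400 were both low, at most 1.35 and 1.14. AT5G19880 reached 2.25 and its neighbour AT5G19890 1.06 in the sections. Near-identical neighbours could share signal through their probes, and this was not tested because no protein or probe sequence was used here.

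Of the partners of these enzymes, NADPH oxidases make the superoxide from which peroxide forms, and 3 of 10 were measured. AT1G19230 and AT4G25090 rose in the maturation zone over the meristematic zone, by 1.05 ± 0.20 and 1.13 ± 0.19 (SE, n = 2 roots, limma adjusted p = 0.0342 and 0.0259). Both rises lay at the low end of the scale. AT4G25090 was at most 1.77 on any array. Of the sections, AT1G19230 reached 2 only in maturation section 4 of root 2, at 2.99, and was at most 1.55 in the others. Among the sorted populations AT1G19230 was highest in hair cells, at 2.58, against at most 0.783 in the other 7. Of the extensins and related wall proteins that peroxidases cross-link, 8 of 19 were measured. In the same comparison 4 of them rose, beside 6.66% of all probe sets, HRGP1 by 3.00 ± 0.31 (SE, n = 2 roots, limma adjusted p = 0.0100). HRGP1 also read 14.3 in hair cells, against 0.926, 1.17 and 1.87 (lowest, median and highest) over the other 7 populations. The single superoxide dismutase or catalase measured of 11 did not pass.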

How the data were processed

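Gene expression was measured on 33 Affymetrix arrays, 8 of sorted protoplasts and 25 of root sections. Per the labels' protocols, RNA was amplified in 2 cycles and labelled with biotin. The deposited values are linear intensities with array medians of 0.790 to 1.04. How background was corrected and how values were summarised and scaled is not given in the sources at hand, and no detection calls were used. The deposited intensities were taken to log2 without an offset or filter. Genes were assigned from the platform annotation (13513 of 22746 list 1 gene, 503 several, 8730 are unlisted). By gene ID, 13436 matched TAIR10.1, which was used for names and gene order, with no coordinates.

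Zone means per root (6 values) were fitted with limma 3.58.1 in R 4.3.3, with root as a block (2 residual and 3.06 prior degrees of freedom). Positions were fitted on the 24 section arrays of both roots (11 residual and 3.62 prior degrees of freedom). The F test, the border contrast and the contrast within the maturation zone come from this fit. Their p-values and SEs use a spread estimated per probe set over all 24 arrays. P-values were adjusted by Benjamini-Hochberg over all probe sets, at 0.05. The block was checked by correlating root differences between positions, which gave -0.233 to 0.834 (median 0.477) over 66 position pairs. Root and array batch cannot be told apart. The steps were tested on simulated data.

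Members and gene lists were chosen with earlier results of these data known. Values in every array are given for members of the role lists and the largest passing changes, and for sorted populations at most 8 members each. Alternatives were no block, quantile normalization, an offset of 1, a filter on the lowest 25% of probe sets, a trended prior variance and leaving out each array.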

Additional observations from a re-analysis of the deposited data

How the results depend on the processing

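No member's called difference reversed under any setting tried. With root not used as a block (no replicate block), 3 members rose in the elongation zone over the meristematic zone (9 with the block), 3 in the maturation zone over the elongation zone (7 with it), 0 fell in the maturation zone below the meristematic zone (1 with it), and 1 rose late in the maturation zone (2 with it). With an offset of 1 the same counts were 4, 3, 0 and 1, 16 members rose in the maturation zone over the meristematic zone (26 with none), and 1 rose at the border of meristem and elongation zone (0 with none). Quantile normalization gave 2 higher in maturation over elongation and 0 lower in maturation below meristem. For maturation over meristem, 18 members rose without the block and 20 with quantile normalization, beside 26 in the main fit. A trended prior gave 15 higher and 1 lower for elongation over meristem, 12 higher and 1 lower for maturation over elongation, 2 lower for maturation below meristem, and 1 higher at the border. Leaving out 1 array at a time gave 3 to 12 higher and 0 to 1 lower for elongation over meristem, 1 to 8 higher and 0 to 2 lower for maturation over elongation, 18 to 26 higher and 0 to 2 lower for maturation over meristem, 27 to 30 in the F test, 0 to 1 higher at the border and 1 to 3 higher late in the maturation zone. Calls that passed in all 24 such runs were 2 of 9, 0 of 7, 16 of 27 and 26 of 29 for the first 4 of these. For the sorted populations, an offset of 1 left 2 members in phloem pole pericycle (4 without), 1 in meristematic xylem (2 without), 0 in protophloem and metaphloem and 0 in J2501. Quantile normalization gave 0 in protophloem and metaphloem and 1 in companion cells. Requiring 2-fold above the highest other population gave 0 in protophloem and metaphloem, 0 in J2501 and 2 in lateral root primordia. For all of these the cause was not tested. A choice between probe sets of a locus was not run, because no locus had several. The low end of the scale, near the array medians, limits what can be said of the 10 members under 2 on all section arrays.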

Other observations

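The columella section of root 1, which belongs in no comparison, had the narrowest spread of all arrays. Its highest peroxidase values were 1.91 for AT2G37130, 1.87 for AT5G64120, 1.49 for AT5G64100 and 1.43 for AT3G01190. No root 2 array matches it.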
